A study of Zea mays with 12 samples.

Results

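Root tips kept at low water potential for 48 h were compared with well-watered root tips of the same age, across the whole transcriptome, by RNA sequencing. The comparison used 6 of the 12 libraries of the series: 3 from water-stressed tips (WS48) and 3 from their age-matched, temporal control (WW48). A further 3 libraries from well-watered tips at 24 h (WW24), the developmental control, showed which changes depended on the choice of WW48. The other 3 libraries, from water-stressed tips at 24 h (WS24), entered the common fit and a comparison of the stress effect at 24 h and 48 h. All plants were seedlings of the maize inbred line FR697, raised in the dark in vermiculite, and the material was the end of the primary root. WS48 and WS24 seedlings grew for 48 h and 24 h at a water potential of −1.6 MPa and gave tips of 7 mm. WW48 and WW24 seedlings grew for 48 h and 24 h at −0.02 MPa and gave tips of 12 mm. Tip length therefore changed together with water supply, and the effect of the shorter segment cannot be told apart from that of water deficit. According to the study, whole roots of WW24 were about as long as those of WS48, which grew more slowly than well-watered roots. Besides water supply, WS48 therefore differed from WW48 in root length and from WW24 in age. Replicates were independent experiments according to the study's methods, and the files do not say how many roots were pooled in each library.

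A root grows from its tip. Cells divide in the meristem, are pushed back into the elongation zone, where they take up water and lengthen while their walls are loosened, and then mature into tissues such as xylem and root hairs. At low water potential the zone in which cells lengthen becomes shorter, osmotic solutes accumulate in it, and the hormone abscisic acid helps to keep the root growing. In a bulk sample of such a tip, fewer cells of a type and less RNA per cell cannot be told apart.

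The 6 libraries held between 41969882 and 54863708 counts on genes. Of the 42976 features in the table, 26746 had enough counts to be tested. Abundance is given in CPM, a feature's counts per 1000000 counts of the library's size after TMM scaling. Changes are log2 fold changes of WS48 over WW48 with an approximate standard error (SE, obtained from the change and the F value of its test). Tests were those of edgeR's quasi-likelihood model, and each adjusted p was corrected by the Benjamini-Hochberg method over all features tested. A feature was called when its adjusted p was at most 0.05 and its log2 change at least 1 in size, and n was 3 libraries per group throughout. Log2 CPM values of replicates correlated with Pearson's r from 0.980 to 0.989 across features, which are not independent replicates. On the 14281 features of highest level, the first principal component held 82.0% of the variance and parted WS48 from WW48. The second, with 9.36%, parted libraries of the same group.

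Markers of tissues that a tip can hold were read from gene descriptions, and how specific each is to its tissue was not checked. Apart from the 2 root cap markers, every marker tested had been picked by the study as changed in these libraries. Counts of called markers therefore show direction only. Over all features tested 14.1% were called. Of the 9 described markers of dividing cells, 3 were increased and 6 decreased, and their summed abundance was 139 to 141 CPM in WS48 and 138 to 158 CPM in WW48. Of the 8 markers of xylem and wall thickening, 6 were increased and 1 decreased, with sums of 185 to 198 CPM in WS48 and 86.8 to 124 CPM in WW48. Both genes of the root hair list were increased, with sums of 39.6 to 42.6 CPM in WS48 and 7.08 to 7.95 CPM in WW48. They were listed by name and include Root hair defective 3, a GTP-binding protein that shapes the endoplasmic reticulum. The 2 root cap markers were not called and stood at 3.97 to 6.23 CPM in WS48 and 2.53 to 5.03 CPM in WW48. No marker was at 0 in either group. The 2 markers of green tissue, 1 increased and 1 decreased, reached 7.50 to 8.21 CPM in WS48 and 4.40 to 5.42 CPM in WW48. The part of tissue composition in the results below was not tested.

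A wide part of the transcriptome differed by a small amount between WS48 and WW48, and a narrow part by a large amount. In all, 1926 features were increased and 1840 decreased in WS48 against WW48, 14.1% of those tested (7.20% increased and 6.88% decreased). On adjusted p alone, 10749 features differed, or 40.2%, of which 5261 were higher and 5488 lower in WS48. Of these, 6983 did so by a log2 change smaller than 1. Conversely, 843 features passed the fold threshold without passing the p threshold. The middle of the distribution hardly moved: the median log2 change was 0.01, the quartiles were −0.31 and 0.35, and the 5th and 95th percentiles were −1.42 and 1.58.

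The tails were not alike. A log2 change of at least 2 was reached by 892 of the increased and 684 of the decreased features, and one of at least 3 by 517 and 273. At 4 the counts were 355 increased and 134 decreased, and at 5 they were 230 and 67. The difference between treatments was larger than that between replicates. A WS48 library differed from a WW48 library by a median of 0.37 on the log2 scale over all features (0.35 to 0.41 over the 9 pairs), and libraries of the same group by 0.13 to 0.23 (6 pairs). All WS48 libraries lay above all WW48 libraries for 6951 features and below them for 6734, which is 51.2% of those tested. Among the calls, 1894 of 1926 increased and 1788 of 1840 decreased features had groups that did not overlap.

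A few features had no count at all in one of the groups. Among the features tested, 86 had no count in any WW48 library, and 85 of them were called increased. Such a feature passes the filter on low counts only through groups in which it is higher, so these counts of calls are nearly fixed by the filter. Only 10 of the 86 reached 1 CPM in every WS48 library. The reverse held for 15 features without a count in WS48, of which 14 were called decreased and 1 reached 1 CPM in every WW48 library. That gene, Zm00001d032535, has no description and was singled out after its values were seen. It had 3.70, 6.60 and 4.15 CPM in WW48 libraries, at least 223-fold more than the 3 counts over all 3 WS48 libraries that a count of 0 allows.

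The size of the change depended on how abundant a transcript was. Features were put into 6 bands by their mean log2 CPM over the 6 libraries. Under 0, 26.8% of 5051 features were called. The share was 22.8% of 4479 features from 0 to 2, 12.2% of 6411 from 2 to 4, and 6.14% of 7253 from 4 to 6. It was 4.64% of 2976 features from 6 to 8 and 4.86% of 576 at 8 and over. The share that passed the adjusted p alone ran the other way, from 27.4% in the lowest band through 35.3%, 41.2%, 44.9% and 52.0% to 58.2% in the highest. The median size of the log2 change was 0.79 in the lowest band and 0.22 to 0.47 in the others.

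**Figure D1:**
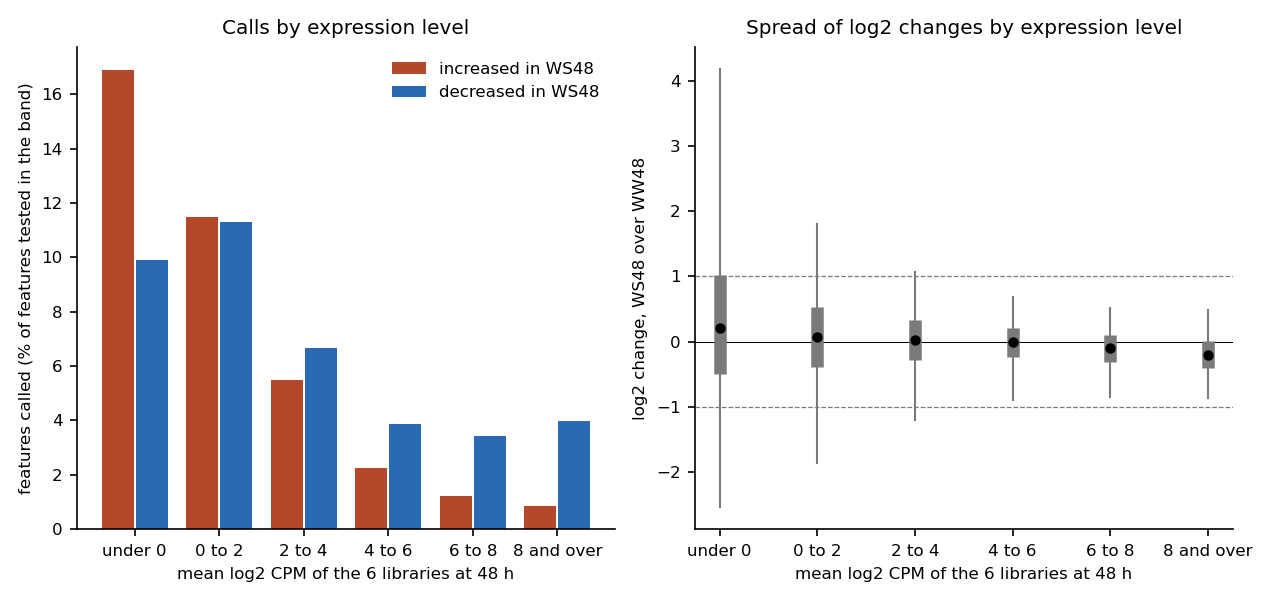
Left, the share of tested features called increased (red) or decreased (blue) in WS48 against WW48, in % of the features of each band of mean log2 CPM. Right, the log2 change of WS48 over WW48 in the same bands, with the median as a point, the quartiles as a thick bar, the 5th and 95th percentiles as a thin line and the fold threshold dashed. Calls were most frequent in the lowest band (16.9% increased, 9.92% decreased) and the 5th to 95th percentile range narrowed from the lowest band to that of 6 to 8.

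The filter on low counts bears on the lowest band. It asks for enough counts in as many libraries as 1 group holds, so that a rare feature can pass through the group in which it is high. Log ratios of rare features were also more variable: libraries of the same group differed by a mean of 0.55 on the log2 scale in the lowest band and by 0.10 from 6 to 8. The treatment difference itself fell from 0.90 in the lowest band to 0.24 from 6 to 8, but its ratio to this spread grew with abundance. Counting noise enters both terms, so the ratio does not give the size of a treatment effect. The difference between WS48 and WW48 libraries was 1.63 times that between replicates in the lowest band. It was 1.84, 1.98 and 2.04 times in the next 3 bands, 2.37 times from 6 to 8 and 2.55 times at 8 and over. In the lowest band 15.0% of features passed the fold threshold without passing the p threshold, against 1.38% from 0 to 2 and 0.281% from 2 to 4.

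The direction of the calls shifted with abundance as well. Of the features called, 63.0% were increased in the lowest band (854 increased and 501 decreased) and 50.5% from 0 to 2 (516 and 505). The share was 45.1% from 2 to 4 (351 and 428), 36.9% from 4 to 6 (164 and 281), 26.1% from 6 to 8 (36 and 102) and 17.9% at 8 and over (5 and 23). Without scaling factors, which moved the median over all features by 0.13, the shares from the lowest band to the highest were 68.2%, 59.2%, 56.5%, 48.4%, 37.6% and 29.6%. The order of the bands was the same. The median log2 change was 0.21 in the lowest band and −0.20 in the highest. From 6 to 8 it was −0.10, and 0.03 without scaling factors.

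In each band the described feature with the smallest adjusted p in each direction showed how clear the extremes were. Below 0, a cytochrome P450 of family 86, subfamily B (Zm00001d013979) was increased and an ABC-2 type transporter (Zm00001d046537) decreased. CYP86 enzymes oxidise fatty acids, and in Arabidopsis subfamily B contributes to suberin. Zm00001d013979 had 8.48, 9.35 and 6.66 CPM in WS48 libraries, against 0.0386, 0.072 and 0 CPM in WW48 libraries, a log2 change of 7.69 ± 0.35. The ABC-2 gene had 0.229, 0.191 and 0.166 CPM in WS48 libraries, against 5.21, 3.31 and 3.56 CPM in WW48 libraries, a log2 change of −4.35 ± 0.32. Adjusted p was 9.64e-09 and 5.46e-07 for these 2 genes, and neither pair of groups overlapped.

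From 0 to 2 the extremes were a type 2C protein phosphatase (Zm00001d025055) and a gene with a DUF594 domain of unknown function (Zm00001d052939). Type 2C phosphatases include brakes of abscisic acid signalling. Zm00001d025055 had 31.8, 36.9 and 39.2 CPM in WS48 libraries, against 0.0772, 0.024 and 0.0932 CPM in WW48 libraries (log2 change 9.03 ± 0.20, adjusted p = 2.55e-11). Its transcript was almost absent from every WW48 library. For Zm00001d052939 the values were 0.0917, 0.085 and 0.0414 CPM in WS48 libraries, against 17.3, 17.7 and 14.2 CPM in WW48 libraries (log2 change −7.78 ± 0.32, adjusted p = 3.63e-09), so that here it was WS48 that was almost without reads.

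A CCCH-type zinc finger gene (Zm00001d037769) was the clearest increase from 2 to 4, and a polyketide cyclase/lipid transport family gene (Zm00001d028793) the clearest decrease. Such zinc fingers occur in proteins that bind RNA. Zm00001d037769 had 86.7, 84.1 and 98.1 CPM in WS48 libraries, against 1.08, 1.10 and 0.885 CPM in WW48 libraries (log2 change 6.45 ± 0.12, adjusted p = 6.44e-12), the smallest adjusted p among all named genes. Zm00001d028793 had 3.53, 3.10 and 3.87 CPM in WS48 libraries, against 51.3, 58.4 and 66.1 CPM in WW48 libraries (log2 change −4.06 ± 0.13, adjusted p = 5.36e-10).

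From 4 to 6 the pair was an H+-pumping pyrophosphatase (Zm00001d053727) and a gene described as a methylenetetrahydrofolate reductase family member (Zm00001d029853). H+-pyrophosphatases use pyrophosphate to acidify the vacuole, and the reductase belongs to folate metabolism. Zm00001d053727 had 139, 129.9 and 145 CPM in WS48 libraries, against 10.4, 9.87 and 9.41 CPM in WW48 libraries (log2 change 3.80 ± 0.12, adjusted p = 4.10e-10). Zm00001d029853 had 7.06, 6.40 and 5.17 CPM in WS48 libraries, against 335, 261 and 265 CPM in WW48 libraries (log2 change −5.53 ± 0.16, adjusted p = 2.66e-10). The second was the widest decrease among the pair members at this level or above.

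From 6 to 8 a divalent ion symporter (Zm00001d027667) was increased and a sugar transporter (Zm00001d018627, sugar transporter 1) decreased. The symporter had 268, 259 and 282 CPM in WS48 libraries, against 24.3, 20.8 and 19.7 CPM in WW48 libraries, a log2 change of 3.64 ± 0.09 with an adjusted p of 5.40e-11. The sugar transporter, a carrier of hexoses with protons in Arabidopsis, had 59.8, 62.5 and 67.1 CPM in WS48 libraries, against 266, 279 and 248 CPM in WW48 libraries, a log2 change of −2.07 ± 0.09 with an adjusted p of 6.12e-09. At 8 and over the pair was sucrose phosphate synthase 1F (Zm00001d050125) and an actin (Zm00001d032480, actin 7). The actin, a subunit of the microfilaments along which a growing cell moves its vesicles, had 129, 127 and 135 CPM in WS48 libraries, against 448, 596 and 505 CPM in WW48 libraries (log2 change −1.99 ± 0.10, adjusted p = 2.34e-08). Only 5 features were increased at 8 and over. They were seed imbibition 2, a hydroxyproline-rich glycoprotein, sucrose phosphate synthase 1F, a dehydrin and Zm00001d004564, which has no description and was singled out after its values were seen (381 ± 14.0 CPM in WS48 and 174 ± 9.37 CPM in WW48).

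The calls moved a modest part of all counts. Features called increased took 3.23, 3.28 and 3.47% of gene counts in WS48 libraries, against 0.872, 0.860 and 0.830% in WW48 libraries. Features called decreased took 2.23, 2.16 and 2.56% in WS48 libraries, against 6.88, 6.26 and 5.88% in WW48 libraries. Both differences follow from how the features were picked, so no test is given. In WW24, which is not part of the contrast although it entered the filter and the estimate of the spread, the shares were 0.933 ± 0.0369% and 5.40 ± 0.134% (SD, n = 3). Between a WS48 and a WW48 library, 12.7% of counts would have to be assigned to other features to make their profiles equal (11.9 to 13.4% over the 9 pairs). Within WS48 this share was 4.60%, within WW48 5.72%, and between WW48 and WW24 libraries 6.22%.

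Counts were spread over more features in WS48. The effective number of features, the exponential of the Shannon entropy of the count shares, was 7639, 7776 and 7766 in WS48 libraries, against 7009, 7112 and 7122 in WW48 libraries and 6864 ± 255 in WW24. At least 1 count per 1000000 gene counts, here without TMM scaling, was reached by 21907 ± 108 features in WS48 and 21451 ± 46.7 in WW48 (SD, n = 3). Without scaling this threshold is easier to pass in WS48 (TMM factors 1.04 to 1.05) than in WW48 (0.945 to 0.971). How much of the difference in this number comes from that was not tested. The 100 features most abundant over the 6 libraries held 12.5 ± 0.194% of counts in WS48 and 13.4 ± 0.290% in WW48. For the 1000 most abundant the shares were 40.2 ± 0.302% and 42.5 ± 0.125%. In each of these measures the groups did not overlap, and the exact two-sided permutation p was 0.1, the smallest that 3 against 3 libraries can give.

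The 8 described features that gained most CPM led with seed imbibition 2 (Zm00001d019163), a member of the family of raffinose synthases and alkaline alpha-galactosidases. It had 1606, 1510.4 and 1962 CPM in WS48 libraries, against 126, 197 and 116 CPM in WW48 libraries (log2 change 3.53 ± 0.31, adjusted p = 2.32e-06), the largest gain of all. Next was a hydroxyproline-rich glycoprotein (Zm00001d028998), of a class of structural wall proteins. Its values were 1480.1, 1501 and 1449.8 CPM in WS48 libraries, against 551, 451 and 516 CPM in WW48 libraries, a log2 change of 1.55 ± 0.09. A dehydrin (Zm00001d051420), one of the hydrophilic proteins that accumulate in drying cells, had 816, 808 and 737 CPM in WS48 libraries, against 213, 256 and 277 CPM in WW48 libraries, a log2 change of 1.66 ± 0.10. All 3 were abundant in both groups, and the WS48 libraries lay above every WW48 library.

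The other gains came from protein folding, wall loosening and metabolism. Heat shock protein 70 (Zm00001d012420), a chaperone, had 461, 490.0 and 415 CPM in WS48 libraries, against 73.8, 104 and 91.7 CPM in WW48 libraries (log2 change 2.34 ± 0.16). Expansin A1 (Zm00001d043047), a protein that loosens walls without cutting them, had 436, 439 and 414 CPM in WS48 libraries, against 117, 74.5 and 76.8 CPM in WW48 libraries (log2 change 2.26 ± 0.18). Sucrose phosphate synthase 1F (Zm00001d050125), which makes the precursor of sucrose, had 507, 486 and 567 CPM in WS48 libraries, against 214, 202 and 204 CPM in WW48 libraries (log2 change 1.33 ± 0.07). These 3 genes differed in how far WW48 replicates scattered, least for the synthase and most for the expansin.

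Glutamate decarboxylase (Zm00001d031749), which forms gamma-aminobutyric acid, had 327, 334 and 375 CPM in WS48 libraries, against 39.1, 42.7 and 46.2 CPM in WW48 libraries, a log2 change of 3.02 ± 0.14. Catalase 1 (Zm00001d054044), which breaks down hydrogen peroxide, had 308, 298 and 329 CPM in WS48 libraries, against 33.9, 69.7 and 25.7 CPM in WW48 libraries, a log2 change of 2.86 ± 0.35. The WW48 replicate 2 library was high for catalase 1 and for seed imbibition 2, though still below all WS48 libraries. Adjusted p of these 8 genes lay between 8.37e-09 and 3.79e-05.

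**Figure D2:**
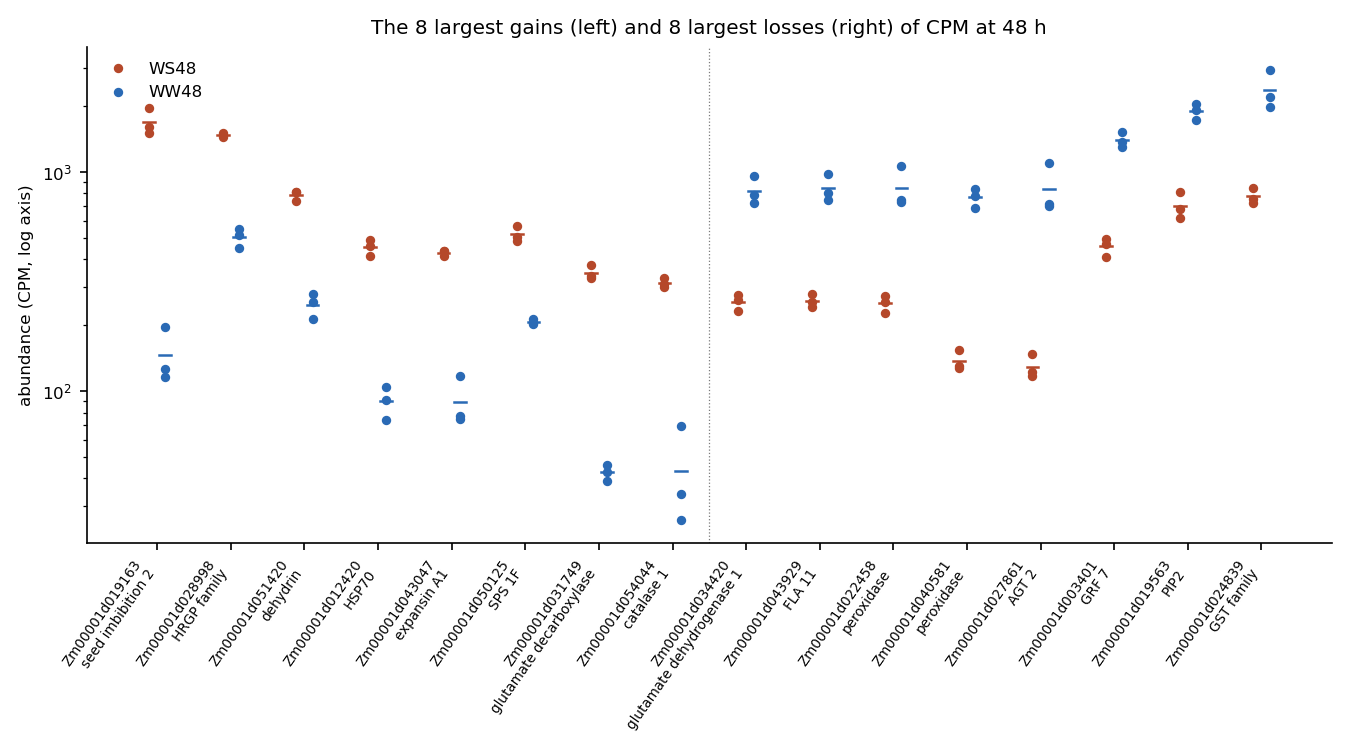
Abundance in CPM (log axis) of the 8 described features with the largest gain (left of the dotted line) and the 8 with the largest loss (right) of mean CPM in WS48 against WW48. Points are libraries (WS48 red, WW48 blue) and bars are group means. The groups do not overlap for any of the 16 features.

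The largest loss was that of a glutathione S-transferase (Zm00001d024839), an enzyme that couples glutathione to other compounds. It had 758, 726 and 849 CPM in WS48 libraries, against 2938, 1982 and 2195 CPM in WW48 libraries (log2 change −1.61 ± 0.14). A plasma membrane aquaporin of the PIP2 group (Zm00001d019563), a water channel, had 677, 619 and 814 CPM in WS48 libraries, against 1912, 2036 and 1736 CPM in WW48 libraries (log2 change −1.43 ± 0.11). General regulatory factor 7 (Zm00001d003401), a 14-3-3 protein that binds phosphorylated partners, had 470.2, 411 and 496 CPM in WS48 libraries, against 1368, 1521 and 1299 CPM in WW48 libraries (log2 change −1.60 ± 0.09). All 3 genes remained abundant in WS48.

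Alanine:glyoxylate aminotransferase 2 (Zm00001d027861) had 123, 117 and 148 CPM in WS48 libraries, against 1105, 712 and 703 CPM in WW48 libraries, a log2 change of −2.70 ± 0.18. It was the deepest of the 8 losses. Class III peroxidases, which oxidise wall phenolics with hydrogen peroxide, were represented by Zm00001d040581 with 131, 128 and 154 CPM in WS48 libraries, against 774, 837 and 687 CPM in WW48 libraries (log2 change −2.48 ± 0.13). The other peroxidase, Zm00001d022458, had 254, 228 and 273 CPM in WS48 libraries, against 1069.7, 747 and 732 CPM in WW48 libraries (log2 change −1.76 ± 0.18). Adjusted p was 4.28e-08 and 7.30e-06 for the peroxidases.

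The fasciclin-like arabinogalactan protein 11 gene Zm00001d043929, which codes for a wall glycoprotein, had 254, 243 and 276 CPM in WS48 libraries, against 743, 983 and 799.5 CPM in WW48 libraries (log2 change −1.71 ± 0.10). Glutamate dehydrogenase 1 (Zm00001d034420), which interconverts glutamate and 2-oxoglutarate, had 259.8, 232 and 274 CPM in WS48 libraries, against 958, 785 and 719.7 CPM in WW48 libraries (log2 change −1.69 ± 0.13). The WW48 replicate 1 library stood above the other 2 for the glutathione S-transferase, the aminotransferase, one of the peroxidases and this dehydrogenase. All 8 losses had an adjusted p of at most 7.30e-06.

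Gene families were read from descriptions. Of the features tested that had one, 1382 had been picked by the study as changed in these libraries, with 746 increased, 623 decreased and a median log2 change of 1.14. Counts in the lists therefore show the direction of genes already known to move, and a list is not independent evidence of its direction. Among the other 222 described features, 8 were increased and 11 decreased, or 8.56%, against 14.1% of all features tested. Leaving out the features that the study had picked lowers the first share, so the 2 shares are not comparable. No called feature changed sign under the other scalings, filters or tools.

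**Figure D3:**
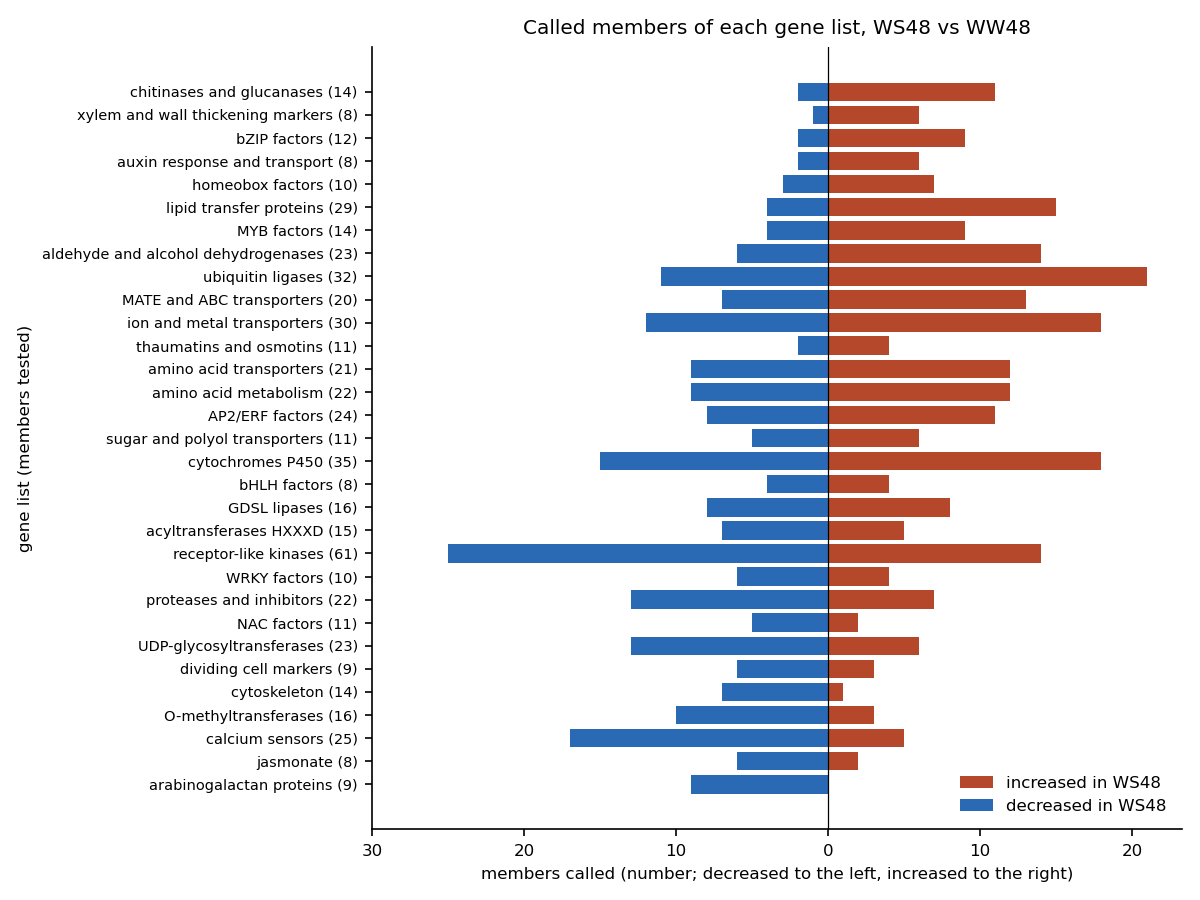
Number of members called increased (red, to the right) and decreased (blue, to the left) in WS48 against WW48, for each gene list with at least 8 members tested, whose number is given in brackets. Chitinases and glucanases stand at the top with 11 increased and 2 decreased of 14, and arabinogalactan proteins at the bottom with 0 increased and 9 decreased of 9.

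Arabinogalactan proteins and cytoskeleton genes that were called mostly fell. All 9 arabinogalactan proteins fell, with a median log2 change of −1.57 and summed abundances of 620.4 to 705 CPM in WS48 and 1707 to 2102 CPM in WW48. Fasciclin-like arabinogalactan protein 10 (Zm00001d027471) had 17.7, 18.3 and 17.6 CPM in WS48 libraries, against 109, 121 and 119 CPM in WW48 libraries, the smallest adjusted p of the list (5.36e-10, log2 change −2.70 ± 0.09). Of 14 cytoskeleton genes, 7 fell, 1 rose and 6 were not called. Tubulin alpha-5 (Zm00001d006651), a subunit of the microtubules that guide cellulose deposition, had 188, 189 and 209 CPM in WS48 libraries, against 531, 624 and 536 CPM in WW48 libraries (log2 change −1.53 ± 0.08). Actin 7 genes differed among themselves: Zm00001d032480 fell as given above, whereas Zm00001d011086, with 449 ± 32.9 CPM in WS48 and 503 ± 21.9 CPM in WW48, had a log2 change of −0.16 and was not called. Near-identical actin and tubulin copies can share reads, so values of single copies are uncertain.

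Chitinases and beta-glucanases, enzymes that cut chitin and callose-like glucans and that plants also use in defence, rose in 11 of 14 cases and fell in 2, with a median log2 change of 2.97. Their summed abundance was 219 to 255 CPM in WS48 and 43.6 to 63.9 CPM in WW48. A basic chitinase (Zm00001d027525) had 12.0, 10.5 and 13.1 CPM in WS48 libraries, against 0.424, 0.432 and 0.559 CPM in WW48 libraries (log2 change 4.65 ± 0.23, adjusted p = 2.01e-08). A homolog of the carrot chitinase EP3-3 (Zm00001d025753) had 16.4, 16.2 and 18.3 CPM in WS48 libraries, against 0.637, 0.624 and 0.28 CPM in WW48 libraries (log2 change 5.03 ± 0.30, adjusted p = 1.07e-07). For both, each WW48 library stayed below 1 CPM.

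Lipid transfer proteins, small secreted proteins that carry lipids, rose in 15 of 29 cases, fell in 4 and were not called in 10. The 2 with the smallest adjusted p moved in opposite ways. Zm00001d017508 had 20.8, 21.3 and 35.9 CPM in WS48 libraries, against 293, 309.6 and 278 CPM in WW48 libraries (log2 change −3.50 ± 0.19), and Zm00001d033595 had 13.1, 11.9 and 14.7 CPM in WS48 libraries, against 1.00, 1.13 and 0.745 CPM in WW48 libraries (log2 change 3.78 ± 0.21). Summed over the list, abundance was 2043 to 2282 CPM in WS48 and 2005 to 2401 CPM in WW48, ranges that overlapped.

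Calcium signalling genes fell more often than they rose, although the largest changes were increases. Of 25 calcium sensors and their kinases, 5 rose, 17 fell and 3 were not called, with a median log2 change of −1.34. An EF-hand protein (Zm00001d014325) had 104, 128 and 119.8 CPM in WS48 libraries, against 2.01, 1.30 and 2.03 CPM in WW48 libraries (log2 change 6.03 ± 0.23, adjusted p = 2.16e-09). The kinase CIPK5 (Zm00001d005748), of a family that works with calcineurin B-like sensors, had 6.10, 7.21 and 8.05 CPM in WS48 libraries, against 0.0579, 0.24 and 0.163 CPM in WW48 libraries (log2 change 5.56 ± 0.29, adjusted p = 3.14e-08). Summed abundance of the list was 440.3 to 491 CPM in WS48 and 663 to 677 CPM in WW48.

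Receptor-like kinases, which sense signals at the cell surface, fell in 25 of 61 cases, rose in 14 and were not called in 22. Among the 26 that the study had not picked, 3 rose and 1 fell. A leucine-rich repeat kinase (Zm00001d038522) had 10.2, 10.3 and 15.4 CPM in WS48 libraries, against 70.1, 69.8 and 57.4 CPM in WW48 libraries (log2 change −2.46 ± 0.17). Another (Zm00001d002313) had 27.6, 31.4 and 32.3 CPM in WS48 libraries, against 81.8, 93.0 and 83.1 CPM in WW48 libraries (log2 change −1.50 ± 0.09). Ubiquitin ligase components, which mark proteins for degradation, went the other way, with 21 of 32 increased and 11 decreased. All 32 had been picked by the study as changed. The RING/U-box gene Zm00001d020861 had 46.1, 46.8 and 51.8 CPM in WS48 libraries, against 18.4, 15.1 and 15.0 CPM in WW48 libraries (log2 change 1.58 ± 0.09). An F-box gene (Zm00001d000224) had 32.3, 28.3 and 31.6 CPM in WS48 libraries, against 5.77, 4.54 and 5.15 CPM in WW48 libraries (log2 change 2.57 ± 0.15). Adjusted p of these 4 genes was at most 3.16e-07.

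Transcription factor families differed in direction. Of 12 bZIP factors 9 rose and 2 fell. Among them, abscisic acid responsive elements-binding factor 2 (Zm00001d031790), which carries the abscisic acid response to promoters, had 44.7, 43.3 and 41.7 CPM in WS48 libraries, against 13.0, 12.7 and 12.9 CPM in WW48 libraries (log2 change 1.75 ± 0.07). Basic leucine zipper 9 (Zm00001d046937) had 2.27, 1.28 and 1.53 CPM in WS48 libraries, against 60.5, 48.9 and 54.2 CPM in WW48 libraries (log2 change −5.02 ± 0.20). Of 14 MYB factors 9 rose and 4 fell, and myb domain protein 305 (Zm00001d027623) had 54.3, 57.4 and 55.5 CPM in WS48 libraries, against 0.675, 0.336 and 0.769 CPM in WW48 libraries (log2 change 6.53 ± 0.26). These 3 genes had an adjusted p of at most 2.60e-09.

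Homeobox factors rose in 7 of 10 cases and fell in 3, but the pair with the smallest adjusted p, Zm00001d038270 (5.49 ± 0.314 CPM in WS48 and 15.6 ± 1.30 CPM in WW48) and Zm00001d003889 (4.64 ± 0.777 CPM in WS48 and 13.4 ± 1.74 CPM in WW48), fell. WRKY factors rose in 4 and fell in 6 of 10 cases, and WRKY DNA-binding protein 33 (Zm00001d010399), a regulator of defence in Arabidopsis, averaged 5.74 ± 0.814 CPM in WS48 and 22.7 ± 2.46 CPM in WW48 (log2 change −1.99 ± 0.17). NAC factors rose in 2, fell in 5 and were not called in 4 of 11 cases. The NAC gene Zm00001d038221 had 78.9, 74.5 and 77.2 CPM in WS48 libraries, against 19.5, 13.8 and 11.9 CPM in WW48 libraries (log2 change 2.34 ± 0.14). It made up most of the summed NAC abundance in WS48 but not in WW48, the sums being 110 to 113 CPM in WS48 and 58.7 to 73.1 CPM in WW48. Of 24 AP2/ERF factors 11 rose and 8 fell, and ethylene responsive element binding factor 1 (Zm00001d026191) had 2.38, 2.51 and 2.92 CPM in WS48 libraries, against 15.1, 10.4 and 13.1 CPM in WW48 libraries (log2 change −2.31 ± 0.19). Summed AP2/ERF abundance was 150 to 166 CPM in WS48 and 180 to 213 CPM in WW48.

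Hormone genes moved in both directions. Of 8 auxin genes 6 rose and 2 fell, among them a SAUR (small auxin-up RNA) gene, Zm00001d005803, with 12.3, 9.95 and 12.3 CPM in WS48 libraries, against 2.18, 2.76 and 1.91 CPM in WW48 libraries (log2 change 2.33 ± 0.19). Both ACC synthases, which make the precursor of ethylene, fell. Zm00001d033862 had 0.78, 1.21 and 1.80 CPM in WS48 libraries, against 8.91, 10.3 and 11.1 CPM in WW48 libraries (log2 change −2.99 ± 0.31), and Zm00001d026060 had 0.504, 0.276 and 0.352 CPM in WS48 libraries, against 4.51, 3.17 and 3.84 CPM in WW48 libraries (log2 change −3.34 ± 0.35). Of 8 jasmonate genes 6 fell and 2 rose. Lipoxygenase 1 (Zm00001d033623), which starts the oxidation of fatty acids, rose with 211, 235 and 268 CPM in WS48 libraries, against 56.1, 44.4 and 36.8 CPM in WW48 libraries (log2 change 2.38 ± 0.13). A PLAT/LH2 lipoxygenase (Zm00001d041204) fell with 2.29, 1.34 and 2.23 CPM in WS48 libraries, against 13.9, 11.2 and 10.99 CPM in WW48 libraries (log2 change −2.62 ± 0.22).

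Transporters moved in both directions within families. Amino acid transporters rose in 12 and fell in 9 of 21 cases, with summed abundances of 252 to 304 CPM in WS48 and 116 to 134 CPM in WW48. Amino acid permease 7 (Zm00001d025665) had 23.5, 26.0 and 29.9 CPM in WS48 libraries, against 1.02, 1.49 and 1.49 CPM in WW48 libraries (log2 change 4.32 ± 0.17), and amino acid permease 2 (Zm00001d053143) had 26.1, 25.4 and 24.1 CPM in WS48 libraries, against 2.99, 2.57 and 3.03 CPM in WW48 libraries (log2 change 3.13 ± 0.13). Sugar and polyol transporters rose in 6 and fell in 5 of 11 cases, yet their sum was 304 to 356 CPM in WS48 and 633 to 751 CPM in WW48. MATE and ABC transporters, which export toxins and metabolites, rose in 13 and fell in 7 of 20 cases, yet their sum was 385 to 430 CPM in WS48 and 481 to 713 CPM in WW48. A MATE gene (Zm00001d004055) had 119, 109 and 108 CPM in WS48 libraries, against 34.8, 30.4 and 28.4 CPM in WW48 libraries (log2 change 1.84 ± 0.08), while pleiotropic drug resistance 12 (Zm00001d044442) had 20.2, 16.2 and 23.4 CPM in WS48 libraries, against 145, 114 and 101 CPM in WW48 libraries (log2 change −2.59 ± 0.17).

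Ion and metal transport genes rose in 18 and fell in 12 of 30 cases, yet their sum was 884 to 988 CPM in WS48 and 1259.5 to 1422 CPM in WW48. A gene with an SPX domain (Zm00001d002614), a domain that senses phosphate status, had 38.9, 46.2 and 51.4 CPM in WS48 libraries, against 7.54, 5.76 and 6.13 CPM in WW48 libraries (log2 change 2.81 ± 0.12). Organic cation/carnitine transporter 2 (Zm00001d021781) had 24.4, 23.4 and 26.4 CPM in WS48 libraries, against 149, 139 and 136 CPM in WW48 libraries (log2 change −2.52 ± 0.13). Aquaporins summed to 834 to 1046 CPM in WS48 and 2075 to 2453 CPM in WW48. Of the 5 described, the NOD26-like genes Zm00001d018037 (68.1 ± 3.55 CPM in WS48 and 16.5 ± 10.5 CPM in WW48) and Zm00001d052261 (8.45 ± 1.57 CPM in WS48 and 3.64 ± 1.46 CPM in WW48) rose, and Zm00001d019563, Zm00001d051174 and Zm00001d048520 fell. PIP2 gene Zm00001d051174 had 136, 132 and 158 CPM in WS48 libraries, against 385, 377 and 325 CPM in WW48 libraries.

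Enzymes that attach sugar or methyl groups to small molecules fell more often than they rose. UDP-glycosyltransferases, which attach sugars, fell in 13 of 23 cases and rose in 6, with sums of 211 to 247 CPM in WS48 and 574 to 729 CPM in WW48. UDP-glucosyl transferase 73D1 (Zm00001d039642) had 10.2, 10.8 and 10.9 CPM in WS48 libraries, against 128, 99.9 and 98.1 CPM in WW48 libraries (log2 change −3.35 ± 0.11), whereas UDP-glycosyltransferase 73B4 (Zm00001d000237) had 9.93, 8.53 and 8.75 CPM in WS48 libraries, against 0.579, 0.312 and 0.582 CPM in WW48 libraries (log2 change 4.19 ± 0.20). O-methyltransferases fell in 10 of 16 cases and rose in 3. One of them, Zm00001d029359, had 64.0, 51.1 and 69.1 CPM in WS48 libraries, against 402, 292 and 307 CPM in WW48 libraries (log2 change −2.44 ± 0.16). Proteases and their inhibitors fell in 13 of 22 cases and rose in 7, and serine carboxypeptidase-like 40 (Zm00001d007073) had 26.9, 24.0 and 33.3 CPM in WS48 libraries, against 93.0, 116 and 98.1 CPM in WW48 libraries (log2 change −1.87 ± 0.12). Cytochromes P450 rose in 18 and fell in 15 of 35 cases, and GDSL lipases rose in 8 and fell in 8 of 16. The P450 sum was 238 to 316 CPM in WS48 and 379 to 413 CPM in WW48. For the lipases it was 488 to 575 CPM in WS48 and 1276 to 1615 CPM in WW48.

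The remaining lists held few calls or calls in both directions. Aldehyde and alcohol dehydrogenases, with other Rossmann-fold proteins, rose in 14 and fell in 6 of 23 cases. Their sum was nonetheless lower in WS48, at 501 to 625 CPM against 874 to 1338 CPM in WW48. Amino acid metabolism genes rose in 12 and fell in 9 of 22 cases, with sums of 1847 to 1963 CPM in WS48 and 2062 to 2800 CPM in WW48. HXXXD acyltransferases rose in 5 and fell in 7 of 15 cases. Thaumatins and osmotins rose in 4 and fell in 2 of 11 cases, with sums of 123 to 147 CPM in WS48 and 184 to 212 CPM in WW48. The bHLH factors rose in 4 and fell in 4 of 8 cases. Of 7 gibberellin genes 4 rose and 3 fell, both genes of the cytokinin list rose, and the only brassinosteroid gene fell. Of 3 genes of fatty acid oxidation and the glyoxylate cycle 2 rose and 1 fell. Some members do not do what their list's name says. The only gene of the translation list is described as a rubber elongation factor (Zm00001d007135, 3.41 ± 0.186 CPM in WS48 and 0.386 ± 0.0903 CPM in WW48), and SERINE-ARGININE PROTEIN 30 (Zm00001d040672, 51.1 ± 4.67 CPM in WS48 and 9.45 ± 1.09 CPM in WW48), counted under amino acid metabolism, is named as a splicing factor. One of the 2 cytokinin genes is described as pseudo-response regulator 7 (Zm00001d007240, 5.27 ± 0.563 CPM in WS48 and 1.94 ± 0.134 CPM in WW48), a component of the circadian clock in Arabidopsis. All 3 were increased.

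Among the tissue marker lists, the root hair genes had the largest median log2 change, 3.03 over 2 genes. The gene described as Root hair defective 3 (Zm00001d052961), a GTP-binding protein that shapes the endoplasmic reticulum, had 14.8, 15.1 and 18.2 CPM in WS48 libraries, against 0.714, 1.32 and 0.606 CPM in WW48 libraries (log2 change 4.20 ± 0.28). RHD SIX-LIKE 1 (Zm00001d008444), named after regulators of root hair outgrowth, had 24.7, 25.1 and 24.3 CPM in WS48 libraries, against 7.21, 6.63 and 6.48 CPM in WW48 libraries (log2 change 1.87 ± 0.20). Laccase 7 (Zm00001d048759), of a family that polymerises lignin, had 31.3, 35.0 and 30.8 CPM in WS48 libraries, against 6.98, 5.74 and 10.3 CPM in WW48 libraries (log2 change 2.07 ± 0.19). Among markers of dividing cells, origin recognition complex protein 6 (Zm00001d022226), which marks where DNA replication starts, had 15.9, 17.01 and 13.2 CPM in WS48 libraries, against 28.8, 31.6 and 36.3 CPM in WW48 libraries (log2 change −1.07 ± 0.11). Its call was lost without scaling factors, where the log2 change was −0.94, and without WS48 replicate 3 (−0.98) or WW48 replicate 3 (−0.98).

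Described features that the study had not picked gave 5 further features in each direction. Cysteine-rich receptor-like kinase 25 (Zm00001d006793) was the most abundant of the increased ones, with 2.32, 2.49 and 2.46 CPM in WS48 libraries, against 0.482, 0.888 and 0.489 CPM in WW48 libraries (log2 change 1.97 ± 0.32, adjusted p = 3.33e-04). The other 4 stayed under 1 CPM in every WS48, WW48 and WW24 library. Of the decreased ones, receptor kinase 3 (Zm00001d032408) had 0.161, 0.595 and 0.352 CPM in WS48 libraries, against 3.144, 3.34 and 2.28 CPM in WW48 libraries (log2 change −2.97 ± 0.39, adjusted p = 6.73e-05). Phloem protein 2-B12 (Zm00001d018451), a lectin-like protein, had 0.665, 0.787 and 0.848 CPM in WS48 libraries, against 2.41, 1.80 and 2.42 CPM in WW48 libraries (log2 change −1.52 ± 0.23, adjusted p = 1.83e-04). The remaining 3 were called against WW48 and not against WW24, and appear below.

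Organelle genes and features outside the gene models held few of the calls. According to the study's methods mRNA was isolated with oligo-dT beads. Only 31 of 157 mitochondrial and 2 of 110 plastid genes had enough counts to be tested, so their few calls say little about the organelles. Of 1499 features with an MSTRG label, the prefix that the program StringTie gives to transcripts it assembles, 117 were increased and 54 decreased (11.4%). Of 31 mitochondrial genes tested, rpl16 was increased and ccmFC and orf105-c were decreased, or 9.68%, against 14.1% of all features tested. These 3 are named after their values were seen. The mitochondrial gene rpl16 averaged 1.08 ± 0.231 CPM in WS48 and 0.501 ± 0.156 CPM in WW48, and orf105-c averaged 3.29 ± 0.246 CPM in WS48 and 6.86 ± 0.706 CPM in WW48. Mitochondrial genes together held 0.0107 ± 0.00117% of counts in WS48 and 0.00805 ± 0.000496% in WW48. Neither of the 2 plastid genes tested was called.

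The calls were then set against the developmental control, to see which of them rested on WW48. Against WW24, 1478 of the 1926 increases and 1077 of the 1840 decreases were called the same way. The other 448 increases (23.3%) and 763 decreases (41.5%) depended on the choice of control. In the comparison with WW24 as a whole, 7.84% of features were increased and 4.79% decreased. A further 619 features were increased and 204 decreased in WS48 against WW24 without being called the same way against WW48. The 2 comparisons share the WS48 libraries, so the difference between them is that between WW48 and WW24.

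**Figure D4:**
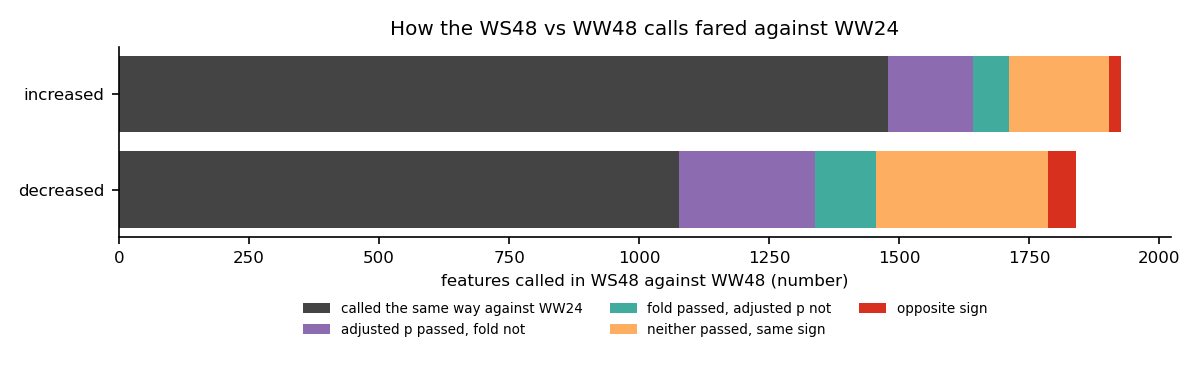
Number of features called increased (upper bar) or decreased (lower bar) in WS48 against WW48, split by their result against WW24. The black part was called the same way against both controls (1478 and 1077), and the coloured parts are the 448 increases and 763 decreases that were not.

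Most control-dependent calls were losses of a threshold and not of a direction. Against WW24, 164 of the 448 increases still passed the adjusted p but with a log2 change smaller than 1. Another 69 passed the fold and missed the p, 192 missed both, and 23 had the opposite sign. For the 763 decreases the counts were 261, 118, 331 and 53. The control-dependent increases had a median log2 change of 1.30 against WW48 and 0.76 against WW24, and the decreases −1.37 against WW48 and −0.75 against WW24. They sat near the fold threshold: 64.7% of these increases and 59.5% of these decreases had a log2 change under 1.5 in size against WW48. Among calls made against both controls this share was 23.3% and 27.9%. The smaller change of control-dependent calls against WW24 follows in part from how they were picked. The WS48 libraries that both comparisons share favour the same sign.

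A difference in call is not a difference between controls, and the direct test of WW48 against WW24 found few. Over all features tested, 692 (2.59%) differed between the controls on adjusted p, and 262 (0.980%) were called, 211 higher and 51 lower in WW48. Among the control-dependent calls, 171 (14.1%) had controls that differed on adjusted p, and 99 (8.18%) had controls that were called. Picking calls that passed against WW48 and not against WW24 favours features whose controls differ, so both shares are raised by the selection. Of the 171, 124 were decreases with WW48 above WW24 and 47 were increases with WW48 below WW24, a direction that the selection fixes. Among the calls made against both controls, 56 increases (3.79%) and 43 decreases (3.99%) had controls that differed on adjusted p. The count of 171 was unstable: it was 53 without WW48 replicate 1 or without WW24 replicate 2, 59 without WW24 replicate 3, 92 without WS48 replicate 1 and 105 without WS48 replicate 2.

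Control dependence varied little with abundance among increases and more among decreases. For increases its share lay between 19.5% and 25.4% in the 5 bands below 8. For decreases it was 44.5% under 0, 44.0% from 0 to 2, 42.8% from 2 to 4, 34.5% from 4 to 6 and 34.3% from 6 to 8. At 8 and over it was 13% of only 23 decreases. Just 3 features were called against both controls in opposite directions, none with a description, and they were singled out after their values were seen. Zm00001d051773 had 109 ± 11.7 CPM in WS48, 50.5 ± 19.6 CPM in WW48 and 231 ± 81.4 CPM in WW24. Zm00001d032961 had 2.87 ± 1.17 CPM in WS48, 8.01 ± 7.57 CPM in WW48 and 0.634 ± 0.327 CPM in WW24. Zm00001d008985 had 1.23 ± 0.381 CPM in WS48, 2.89 ± 1.37 CPM in WW48 and 0.562 ± 0.0267 CPM in WW24. In the last 2 genes WW48 was the highest group, and in the first the lowest.

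Descriptions were at hand for only 29 of the control-dependent calls, 10 increases and 19 decreases. Most nuclear descriptions came from the study's set of changed transcripts, which had to change the same way against both controls. All described increases named below and several of the decreases were in that set, so near misses against WW24 are favoured by selection. Over all control-dependent increases the log2 change against WW24 had a median of 0.76 and an upper quartile of 0.94. The examples that follow had a mean log2 CPM of at least 1 and groups that did not overlap between WS48 and WW48, since wider changes of rarer features rest on few counts. Under these limits the widest increases were 2 genes without a description. Zm00001d017545 had 24.9, 17.7 and 14.1 CPM in WS48 libraries, against 2.82, 3.34 and 3.49 CPM in WW48 libraries and 13.5, 11.1 and 14.5 CPM in WW24 libraries. Its log2 change was 2.56 ± 0.25 against WW48 (adjusted p = 6.27e-06) and 0.54 against WW24 (adjusted p = 0.0849). WW48 was the group that stood apart, with a log2 change of −2.02 ± 0.25 against WW24 (adjusted p = 0.00357).

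Zm00001d031428 had 7.38, 7.70 and 4.78 CPM in WS48 libraries, against 0.849, 0.84 and 1.12 CPM in WW48 libraries and 4.06, 3.59 and 4.56 CPM in WW24 libraries. All WW48 values again lay below those of WS48 and WW24. The log2 change was 2.82 ± 0.40 against WW48 and 0.70 against WW24 (adjusted p = 0.143), and WW48 differed from WW24 by −2.12 ± 0.40 (adjusted p = 0.0201). WS48 libraries overlapped WW24 libraries for Zm00001d017545 and lay above them for Zm00001d031428.

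**Figure D5:**
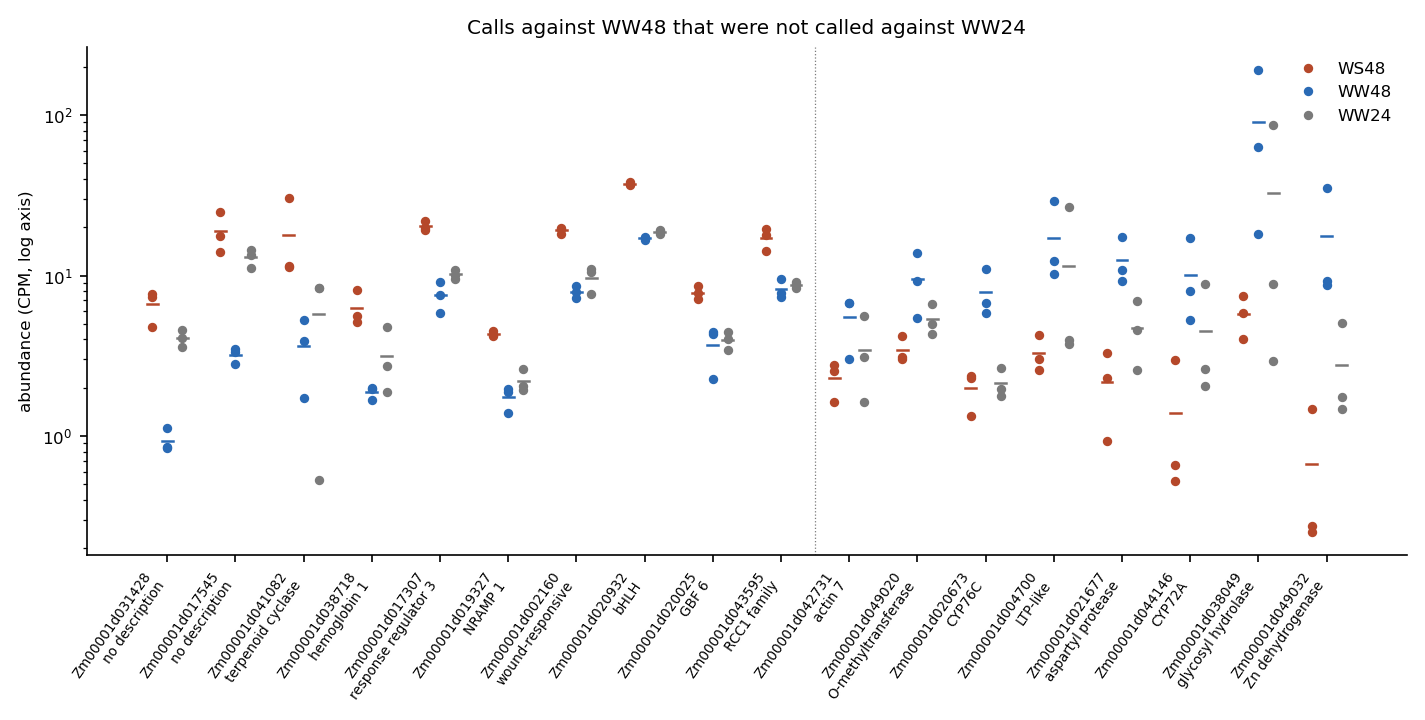
Abundance in CPM (log axis) of named features called in WS48 against WW48 but not called the same way against WW24, increases left of the dotted line and decreases right of it. Points are libraries (WS48 red, WW48 blue, WW24 grey) and bars are group means. In the increases WS48 stands above WW48 and in the decreases below it, while WW24 lies between them in most.

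Among the described increases, response regulator 3 (Zm00001d017307), of a family that answers to cytokinin, had 22.01, 19.2 and 19.7 CPM in WS48 libraries, against 5.88, 9.17 and 7.52 CPM in WW48 libraries and 9.57, 10.1 and 10.9 CPM in WW24 libraries. Its log2 change was 1.43 ± 0.16 against WW48 and 1.00 against WW24, where the unrounded value fell just short of 1 (adjusted p = 3.44e-04). The same near miss was found for a bHLH factor (Zm00001d020932), with 37.0, 38.5 and 36.6 CPM in WS48 libraries, against 17.1, 17.4 and 16.7 CPM in WW48 libraries and 19.1, 18.1 and 19.0 CPM in WW24 libraries. Its change was 1.13 ± 0.06 against WW48 and 1.00 against WW24 (adjusted p = 1.62e-07). For this gene WW48 differed from WW24 by −0.14 ± 0.06 (adjusted p = 0.293).

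The wound-responsive gene Zm00001d002160 (0.99 against WW24), the metal transporter NRAMP 1 (Zm00001d019327, 0.99), an RCC1 family gene (Zm00001d043595, 0.97) and G-box binding factor 6 (Zm00001d020025, 0.97) likewise passed the adjusted p against WW24 and missed the fold. Against WW48 their log2 changes were 1.27, 1.31, 1.07 and 1.07. Hemoglobin 1 (Zm00001d038718), whose plant form scavenges nitric oxide when oxygen is low, had 5.11, 8.10 and 5.57 CPM in WS48 libraries, against 1.99, 1.68 and 1.96 CPM in WW48 libraries and 1.89, 4.81 and 2.75 CPM in WW24 libraries. The log2 change was 1.74 ± 0.29 against WW48 and 1.00 against WW24 (adjusted p = 0.0127). The call of G-box binding factor 6 against WW48 was lost without WS48 replicate 3, where the change fell just short of 1, or without WW48 replicate 3 (0.82). That of the RCC1 gene was lost without WS48 replicate 3 (0.97) or WW48 replicate 2 (0.99).

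A terpenoid cyclase family gene (Zm00001d041082) had 11.3, 11.5 and 30.6 CPM in WS48 libraries, against 5.30, 3.94 and 1.72 CPM in WW48 libraries and 8.36, 0.532 and 8.38 CPM in WW24 libraries. Its replicates scattered widely in each group, most in WW24. The log2 change of 2.27 ± 0.66 against WW48 (adjusted p = 0.015) was no longer called without WS48 replicate 3 (1.63, adjusted p = 0.079) or without WW48 replicate 3 (1.94, adjusted p = 0.0548). Against WW24 the log2 change was 1.62 (adjusted p = 0.0613).

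Among the described decreases, cytochrome P450 76C (Zm00001d020673), of a family that oxidises monoterpenols in Arabidopsis, had the clearest difference between controls. It had 1.33, 2.30 and 2.36 CPM in WS48 libraries, against 11.01, 6.77 and 5.87 CPM in WW48 libraries and 1.79, 1.97 and 2.66 CPM in WW24 libraries. The log2 change was −1.98 ± 0.34 against WW48 (adjusted p = 5.42e-04) and −0.10 against WW24 (adjusted p = 0.851). WW48 exceeded WW24 by 1.88 ± 0.34 (adjusted p = 0.0178), with every WW48 library above every WW24 library. UDP-glucosyl transferase 85A2 (Zm00001d021219) was alike, with 2.77, 2.91 and 4.82 CPM in WS48 libraries, against 9.14, 7.20 and 7.87 CPM in WW48 libraries and a WW24 mean of 3.82 ± 0.69 CPM. Its change was −1.20 ± 0.21 against WW48 and −0.12 against WW24, and the controls differed by 1.08 ± 0.21 (adjusted p = 0.0243).

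The widest described decrease under the same limits was a zinc-binding dehydrogenase (Zm00001d049032), with 0.252, 0.276 and 1.47 CPM in WS48 libraries, against 35.2, 9.32 and 8.69 CPM in WW48 libraries and 1.74, 1.47 and 5.06 CPM in WW24 libraries. WW48 replicate 1 was far above the other WW48 libraries. The log2 change was −4.71 ± 0.79 against WW48 and −2.03 against WW24 (adjusted p = 0.0549), and the controls differed by 2.68 ± 0.69 without passing the threshold (adjusted p = 0.0628). A glycosyl hydrolase (Zm00001d038049) also had 1 WW48 library far above the others, with 5.82, 4.04 and 7.43 CPM in WS48 libraries, against 62.9, 191 and 18.1 CPM in WW48 libraries. Its log2 change of −3.97 ± 1.09 was −2.82 without WW48 replicate 2 and no longer called (adjusted p = 0.0509). The gene had 86.3, 2.94 and 8.84 CPM in WW24 libraries, and the controls differed by 1.46 ± 0.96 (adjusted p = 0.497). Against WW24 its log2 change was −2.51 (adjusted p = 0.0749), past the fold but not the p.

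Further decreases were seen among enzymes and a secreted protein. Cytochrome P450 72A (Zm00001d044146) had 0.527, 0.659 and 2.98 CPM in WS48 libraries, against 17.1, 5.28 and 8.04 CPM in WW48 libraries and a mean of 4.49 ± 3.76 CPM in WW24. Its log2 change was −2.86 ± 0.70 against WW48 and −1.69 against WW24 (adjusted p = 0.0703). An aspartyl protease (Zm00001d021677) had 2.29, 0.935 and 3.29 CPM in WS48 libraries, against 17.5, 9.24 and 10.8 CPM in WW48 libraries and a mean of 4.71 ± 2.19 CPM in WW24. Its log2 change was −2.52 ± 0.46 against WW48 and −1.12 against WW24 (adjusted p = 0.0707). Both passed the fold against WW24 and missed the p. A lipid transfer-like gene (Zm00001d004700) had 3.00, 2.59 and 4.28 CPM in WS48 libraries, against 12.3, 29.2 and 10.2 CPM in WW48 libraries (log2 change −2.39 ± 0.69, adjusted p = 0.0143), and its call was lost without WS48 replicate 1, WS48 replicate 2 or WW48 replicate 2 (−2.32, −2.24 and −1.78). In WW24 libraries this gene had 26.7, 3.97 and 3.73 CPM, and its log2 change against WW24 was −1.80 (adjusted p = 0.0515).

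An O-methyltransferase (Zm00001d049020) had 3.03, 3.13 and 4.20 CPM in WS48 libraries, against 9.32, 13.9 and 5.40 CPM in WW48 libraries and a mean of 5.33 ± 1.21 CPM in WW24. Its log2 change was −1.46 ± 0.29 against WW48 and −0.63 against WW24 (adjusted p = 0.101). An actin 7 copy of low level (Zm00001d042731) had 1.63, 2.53 and 2.75 CPM in WS48 libraries, against 6.77, 6.75 and 3.00 CPM in WW48 libraries and a mean of 3.44 ± 2.01 CPM in WW24 (log2 change −1.26 ± 0.40, adjusted p = 0.0237). It lost its call without WS48 replicate 1 or 2 or without WW48 replicate 1 or 2, with log2 changes of −1.06 to −1.33. Against WW24 its log2 change was −0.58 (adjusted p = 0.275). The highly abundant actin Zm00001d032480, by contrast, was called against both controls, at −1.99 against WW48 and −2.08 against WW24.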

How the data were processed

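Raw read counts per gene were deposited by the authors for 12 libraries. Further columns of the same deposited table hold normalized values that the authors rounded to whole numbers, treated here as a score and not used. According to the submitters' processing notes, reads were aligned with HISAT2 1.0 and counted with HTSeq 0.6.1 on B73 RefGen_v4, and the study's methods name an assembly specific to FR697. Libraries were strand-specific according to the study's methods, but the strand option of the counting was not given in the sources used here. Genes that overlap or lie antisense, and near-identical copies, are therefore uncertain. Counter summary rows were left out. Unaligned reads made up 12.7 to 14.7% of all rows in the 48 h libraries.

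Of 42976 features, 26746 passed filterByExpr (minimum count 10). All 12 libraries were fitted with 1 coefficient per group in edgeR 4.0.16 (R 4.3.3, limma 3.58.1) by the quasi-likelihood test with TMM scaling (factors 0.945 to 1.05 in WS48 and WW48). A call needed a change of 1 or more on the log2 scale, in either direction, with an adjusted p not above 0.05. The procedure was tested on simulated data. Alternatives were other scalings, other filters, DESeq2 1.42.0, fewer groups, a replicate block, other thresholds and leaving out each library. Replicates of a group differed by more than sampling noise (chi-square per gene 5.38 to 33.7), so none was merged. Floors for counts of 0 cover counting error only.

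Descriptions came from the study's tables, feature labels and RefSeq, which matched 267 organelle genes and 0 nuclear genes. Named genes were the 8 largest gains and 8 largest losses of CPM, the 8 widest control-dependent calls in each direction (and the 2 widest without asking for a description) with a mean log2 CPM of at least 1, the clearest call per band and direction, up to 2 called members per list, and the 5 clearest calls in each direction that the study had not picked. They came to 123, some given only through their list. The groups compared, the rules and the lists were chosen with earlier results of these data known, and word patterns of the lists were corrected after their members were seen.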

Additional observations from a re-analysis of the deposited data

Results flagged for a closer look

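For 8 of the 123 named genes the effect of stress at 48 h differed from that at 24 h by edgeR's quasi-likelihood test of the difference itself, (WS48 minus WW48) minus (WS24 minus WW24), with the adjusted p and fold thresholds used for calls. Over all features tested 103 did so (0.385%), and 59 did so among the 3766 calls against WW48. Named genes were picked on WS48, WW48 and WW24 values that also enter this test. The pick raises their share, which is therefore not comparable with that of all features. In 4 of the 8 genes the effect at 48 h was smaller in size and of the same sign. The lipid transfer gene Zm00001d017508 differed by 2.61 (−3.50 at 48 h and −6.11 at 24 h, adjusted p = 0.00202). The reductase family gene Zm00001d029853 differed by 1.16 (−5.53 and −6.69, adjusted p = 0.0311). The lipid transfer gene Zm00001d033595 differed by −1.62 (3.78 and 5.40, adjusted p = 0.0379), and lipoxygenase 1 (Zm00001d033623) by −1.34 (2.38 and 3.71, adjusted p = 0.0105).

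In the other 4 genes the effect at 48 h was the larger in size. WRKY DNA-binding protein 72 (Zm00001d039532) differed by −1.36 (−2.10 at 48 h and −0.74 at 24 h, adjusted p = 0.0409). The estimates had opposite signs for UDP-glucosyl transferase 85A2 (Zm00001d021219), by −1.87 (−1.20 and 0.67, adjusted p = 0.0218). They also did for the undescribed genes Zm00001d017545, by 2.92 (2.56 and −0.37, adjusted p = 0.0052), and Zm00001d031428, by 3.60 (2.82 and −0.78, adjusted p = 0.0168). These 3 were called against WW48 and not against WW24. Groups of 3 libraries are too small for a check of outlying samples.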

How the results depend on the processing

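Of the counts and shares recomputed under other settings than leaving out a library, 109 of 125 stayed within 1.5 times or 1 SD of the value given, and no result reversed. The filter of more than 3 CPM in a library gave 1175 increases, 205 control-dependent increases and, under 0, 161 increases and 62 decreases, since fewer rare features were tested. A test against the fold itself (glmTreat) gave 910 increases, 798 decreases, 217 and 366 control-dependent calls, and 99 of these with controls that differed on adjusted p (171 given). Adjusted p alone gave 5261 increases and 5488 decreases, with 1197 and 1398 control-dependent. Controls differed for 318 control-dependent calls in DESeq2 and for 85 with the replicate block, and 8 features at 8 and over were increased without scaling factors (5 given). The cause of these last 3 changes was not tested.

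Of 123 named genes, 17 lost their call under at least 1 setting, all of them under glmTreat. No call changed sign under any scaling, filter or tool, and 1 did without WW48 replicate 2. Same-numbered WS48 and WW48 libraries deviated from their group means with correlations of −0.30, −0.13 and −0.50, so replicate numbers were not read as pairs. The block gave 3641 calls, 3588 of them shared with the 3766 given.

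Leaving out 1 library gave 1707 to 1934 increases, 1621 to 1942 decreases, 403 to 600 and 625 to 861 control-dependent calls, and 53 to 230 whose controls differed. With 2 libraries left in a group, its spread was taken from the common fit.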
